A study of Homo sapiens with 6 samples.

Results

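The MBNL, CELF1, RBFOX2 and TIA proteins are RNA-binding proteins that decide which exons stay in an mRNA, and their own transcripts are alternatively spliced. The events of MBNL1, MBNL2, MBNL3, CELF1, RBFOX2, TIA1 and TIAL1 were taken from 5 tables of alternative splicing (AS) events by gene symbol, with a mean of at least 10 junction reads over the 6 libraries. These tables held 75 events of the 7 genes, and 66 of them reached the minimum, out of 66378 events in all. They were 47 skipped exons (SE), 11 alternative 3ʹ splice sites (A3SS), 2 alternative 5ʹ splice sites (A5SS), 5 pairs listed as mutually exclusive exons (MXE) and 1 retained intron (RI). The member event nearest above the minimum, an MBNL2 exon, had a mean of 10.3 reads, and the nearest below it, a TIAL1 exon, had 7.83.

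NCI-H1975 is an established human lung adenocarcinoma cell line. One group of cells received the plasmid PCDNA3.1 carrying SAM68 and the control group received PCDNA3.1 alone, at 2 µg per well for 48 h, with 3 biological replicates in each. The skipped exon table held 16951876 to 19737729 junction reads per library. The tables name only a first and a second list of libraries, and the first list was read as control because the study's plot of PKM splicing gives its levels to the control libraries. Library numbers used below are places in these lists, which carry no replicate numbers. Of the epithelial markers, KRT8 and KRT18 had events with junction reads in every library, whereas the tables used here held no event of 4 further epithelial markers or of the leukocyte, endothelial and fibroblast markers. KHDRBS1, which encodes SAM68, had 311, 328 and 316 junction reads per 1e+06 (rpm) in control libraries and 1230.4, 1259.7 and 1276 in SAM68 libraries. On the log2 scale the difference was 1.98 with a standard error of 0.0473 (adjusted p = 1.16e-21, limma on log2(rpm + 0.5)), and reads of the plasmid's SAM68 sequence are counted with those of the gene.

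MBNL proteins bind short motifs around YGC and either include or skip an exon depending on which side they bind. CELF1 binds GU-rich RNA and acts against MBNL1 on several shared exons. RBFOX2 recognizes UGCAUG, and TIA1 and TIAL1 bind runs of U just after weak 5ʹ splice sites. Several of these genes hold exons through which their proteins regulate their own mRNA. SAM68 itself binds A- and U-rich RNA of the type UUUAAA.

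The paralogs MBNL1 and MBNL2 share an exon plan that includes a 54-nt exon, which controls how much of the protein enters the nucleus, and a 95-nt exon near the end of the reading frame. These exons are shown because both paralogs were measured in the same libraries, and the capitals mark bases that differ between the paralogs. They were read from hg38 on the strand of the gene, at chr3:152446704-152446757 and chr13:97356796-97356849 for the 54-nt exons and at chr3:152456267-152456361 and chr13:97366459-97366553 for the 95-nt exons.
MBNL1 54-nt exon: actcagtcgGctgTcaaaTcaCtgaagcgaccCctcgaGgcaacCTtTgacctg
MBNL2 54-nt exon: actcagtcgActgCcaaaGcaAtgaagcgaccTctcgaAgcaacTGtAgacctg
MBNL1 95-nt exon: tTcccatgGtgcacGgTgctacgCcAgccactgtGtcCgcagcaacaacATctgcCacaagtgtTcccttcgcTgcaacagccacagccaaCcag
MBNL2 95-nt exon: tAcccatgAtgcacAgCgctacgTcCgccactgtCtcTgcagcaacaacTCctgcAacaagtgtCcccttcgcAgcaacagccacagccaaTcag
The 54-nt exons were identical at 45 of 54 bases (83.3%) and the 95-nt exons at 81 of 95 bases (85.3%). Both lengths were the same in the paralogs, and 54 is a multiple of 3 whereas 95 is not, so that skipping the 95-nt exon shifts the reading frame.

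Short exons of MBNL1, TIA1 and RBFOX2 are shown next, with the exon in capitals and 10 bases of intron on each side in lower case. The printed stretches lie at chr3:152455532-152455587 (MBNL1, + strand), chr2:70229049-70229101 (TIA1, - strand), chr22:35756095-35756154 and chr22:35768247-35768359 (RBFOX2, - strand).
MBNL1 36-nt exon: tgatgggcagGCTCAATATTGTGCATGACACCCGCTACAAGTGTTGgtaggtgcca
TIA1 33-nt exon: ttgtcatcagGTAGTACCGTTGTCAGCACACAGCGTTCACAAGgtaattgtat
RBFOX2 40-nt exon: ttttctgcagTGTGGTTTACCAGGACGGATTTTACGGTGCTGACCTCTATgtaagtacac
RBFOX2 93-nt exon: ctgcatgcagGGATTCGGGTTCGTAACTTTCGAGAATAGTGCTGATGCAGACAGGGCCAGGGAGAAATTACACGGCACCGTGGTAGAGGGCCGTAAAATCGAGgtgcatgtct
The letters TGCATG, the DNA form of the RBFOX motif, stood in the intron directly before and directly after the RBFOX2 93-nt exon. This exon encodes part of the RNA-binding domain of RBFOX2, and the protein made without it is known to act against the full-length form.

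Of the 11 A3SS events, 4 were tandem acceptors in which the splice site moves by 3 nt. All of them read TAG followed by CAG, and the capitals mark the 3 bases that are exonic only when the upstream AG is used. They lie on the - strand at chr11:47476945-47476979, chr11:47484509-47484543, chr22:35781732-35781766 and chr2:70214480-70214514.
CELF1 exon 12 acceptor: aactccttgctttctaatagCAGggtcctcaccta
CELF1 exon 7 acceptor: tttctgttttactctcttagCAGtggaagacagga
RBFOX2 exon 4 acceptor: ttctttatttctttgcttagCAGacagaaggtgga
TIA1 exon 12 acceptor: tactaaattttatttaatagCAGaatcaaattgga
Longer shifts of a splice site are shown for CELF1 (12 nt, chr11:47478929-47478964), TIAL1 (51 nt, chr10:119582552-119582614) and a 5ʹ splice site of TIA1 (6 nt, chr2:70236061-70236090). The capitals again mark the bases that only the longer form keeps.
CELF1 12-nt part: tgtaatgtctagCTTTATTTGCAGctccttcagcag
TIAL1 51-nt part: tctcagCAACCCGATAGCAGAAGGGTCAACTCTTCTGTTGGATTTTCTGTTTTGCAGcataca
TIA1 6-nt part: atgattatggatGTAAGGgtattttactta

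Splicing was given as percent spliced in (PSI), the share of the longer form after each count was scaled to the length its reads could cover. For MXE events, PSI is the share of the exon that the transcript meets first. ∆PSI is SAM68 minus control in percentage points, with a 95% interval built from the spread that the events of a type share. A call needed an adjusted p under 0.05 in a quasi-binomial test of the counts (spread moderated with limma, Benjamini-Hochberg adjustment over all events of its type) and a ∆PSI of 10 points or more. None of the 66 member events was called, against 0.0934% of all events tested. The smallest adjusted p was 0.45. With each event's own spread or by limma after a logit of PSI the count was also 0, and a likelihood ratio test that ignores the spread called 1, the CELF1 72-nt exon. The p-values of single events given below come from the quasi-binomial test. In it the moderation gave every event the shared spread of its type, so an event's own spread between replicates did not enter its p.

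Without adjustment, 7 of the 66 events (10.6%) had a p under 0.05, 4 with higher and 3 with lower PSI in SAM68 libraries, against 5.95% of all events. The groups did not overlap in 6 of the 66 events (9.09%), 3 in each direction, against 6.1% of all events. Several of these events share a junction and are not independent of one another. When rows with the same exon were summed, 5 of 34 skipped exons of the members had a p under 0.05 (14.7%), against 5.78% of all skipped exons so summed. With the other event types included, these were 5 of 53 member events (9.43%), against 6.14% of all events. The 99-nt and 150-nt forms of the same TIAL1 exon both count among them and rest on the same skipping reads, so dependence remained after summing. The median absolute ∆PSI was 1.34 points in the 48 member events with at least 50 reads and 0.762 points over all events with as many reads, but a rarer form of at least 5% was present in 42.4% of the member events and in 32.3% of all events, so these medians are not directly comparable. Of the 66 intervals, 37 lay within 10 points on both sides of 0, and the other intervals did not exclude a change of 10 points at this depth.

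**Figure D1:**
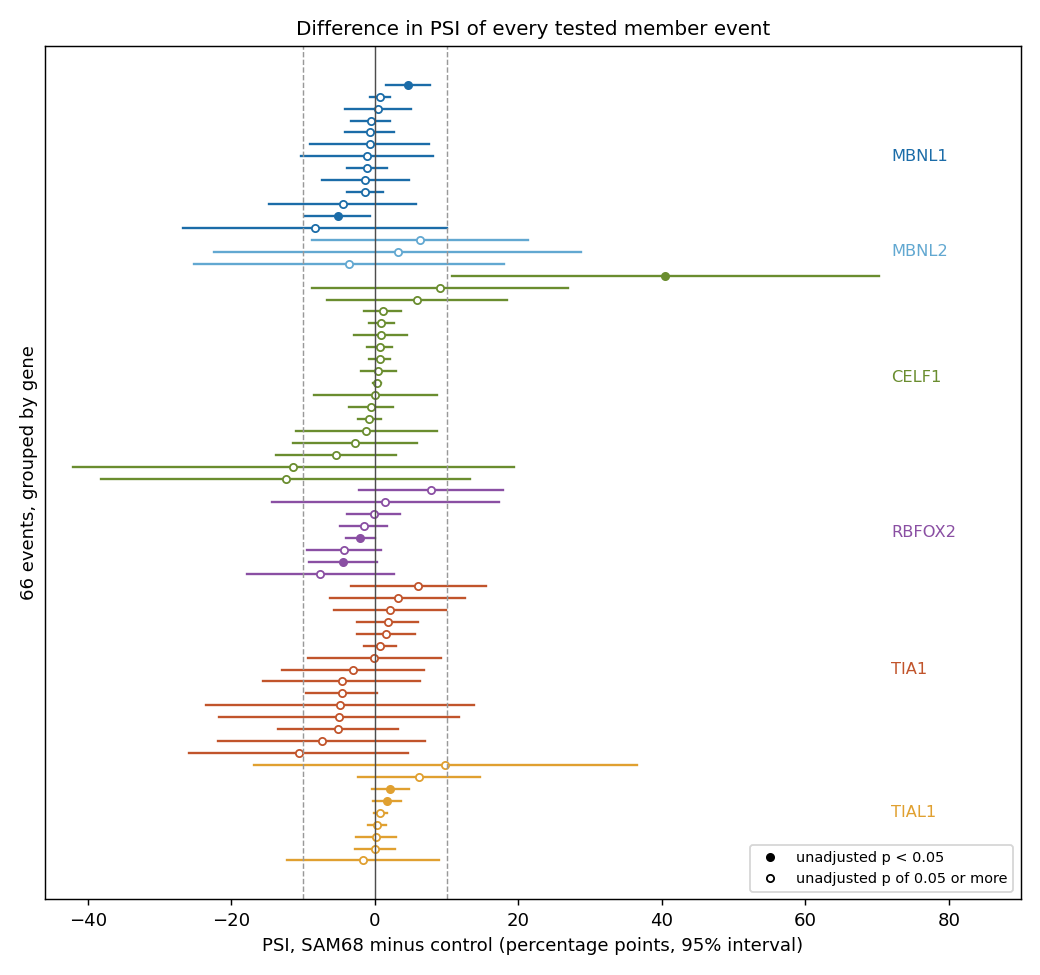
∆PSI of the 66 events in percentage points (x axis), with 1 row per event grouped by gene, 95% intervals as lines, and dashed lines at the limit of 10 points. Filled points mark the 7 events with an unadjusted p under 0.05, and the widest intervals belong to CELF1, MBNL2 and TIAL1 events with few reads.

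MBNL1 (ENSG00000152601.17, chromosome 3, + strand) had 13 events. Its 54-nt exon is spliced out by MBNL1 protein itself in many cells, and it was close to equally included and skipped in NCI-H1975. PSI was 62.9, 49.5 and 56.4% in control libraries and 64.1, 49.8 and 51.6% in SAM68 libraries, from 151 to 203 reads each. The groups overlapped almost fully. The ∆PSI was -1.09 points (95% interval -10.3 to 8.09, adjusted p = 0.947), so an effect of 10 points on this exon was at the edge of what the depth could show. The exon is coding in all 5 protein-coding transcripts of GENCODE 44 that hold it, but it is not part of the canonical transcript.

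The 36-nt exon of MBNL1 (exon 7 of the canonical 10) lies in the part of the protein that mediates self-association. It was almost always included, with PSI of 96.3, 100 and 100% in control libraries and 95.8, 97.9 and 87% in SAM68 libraries. The lowest value belonged to 1 SAM68 library, which had 12 skipping reads among 114. The ∆PSI was -5.2 points (interval -9.73 to -0.661, unadjusted p = 0.0194, adjusted p = 0.699), and without that library it was -1.92 points. The groups overlapped.

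The 95-nt exon of MBNL1 (exon 8) was included at 99.3, 95.1 and 100% in control libraries and at 92.2, 100 and 100% in SAM68 libraries. The ∆PSI of -0.747 points (interval -4.21 to 2.72) was smaller than the spread within either group (adjusted p = 0.712).

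The rows of these exons shared junctions, which allowed the reads of each single junction to be worked out. Over the 3 control libraries, 406 reads joined the 36-nt to the 95-nt exon and 322 joined the 95-nt exon to the next exon. The junction that skips only the 36-nt exon held 5 reads, the one that skips only the 95-nt exon held 9, and the one that skips both held 7. In the SAM68 libraries these sums were 313, 312, 19, 12 and 9 reads. The junction into the 36-nt exon from the 154-nt exon before it held 69 reads in the control and 50 in SAM68 libraries, fewer than the junction out of it in every library.

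An MXE row lists the 36-nt and the 95-nt exon as alternatives. Its PSI was 25.7, 22.8 and 25.5% in control libraries and 26, 19 and 15.6% in SAM68 libraries, with a ∆PSI of -4.5 points (interval -14.8 to 5.79, adjusted p = 0.901). Both exons stand in the canonical transcript, and its counts are mostly reads on the outer junctions of transcripts that hold both exons. The value is therefore a ratio of those junctions rather than a measure of exclusive use.

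The MBNL1 event with the smallest p was a 963-nt exon (exon 2, chr3:152299405-152300367), which overlaps coding sequence in all 8 protein-coding transcripts that hold it. PSI was 94.3, 97.4 and 92.6% in control libraries and 99.4, 100 and 98.9% in SAM68 libraries. Every SAM68 library lay above every control library (two-sided exact permutation p = 0.1, the smallest that 3 against 3 libraries allow). The ∆PSI was 4.64 points (interval 1.57 to 7.7, unadjusted p = 0.00346, adjusted p = 0.45), and 2.4 points without the normalization by length. A second row has the same exon behind another first exon. There PSI was 99.1, 94.5 and 96.5% against 95.5, 100 and 95.8%, with a ∆PSI of 0.403 points (interval -4.22 to 5.02). With both rows summed the ∆PSI was 3.11 points. The other MBNL1 events, among them a 204-nt exon and an acceptor 105 nt further downstream, had differences from -8.3 to 0.688 points with adjusted p of 0.699 or more.

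MBNL2 (ENSG00000139793.18, chromosome 13, + strand) had 4 rows and 3 tested events, all with few reads. PSI of its 54-nt exon (exon 6 of the canonical 9) was 11, 18.2 and 9.72% in control libraries and 2.05, 41.5 and 14.3% in SAM68 libraries, from 12 to 38 reads each. The SAM68 libraries lay both below and above the control libraries. The ∆PSI was 6.34 points with an interval of -8.71 to 21.4 (adjusted p = 0.998). In control libraries the MBNL2 exon was at 13% ± 4.55 (SD, n = 3) and the MBNL1 exon of the same length at 56.3% ± 6.69 (SD, n = 3), and no control library of MBNL2 reached the lowest one of MBNL1.

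The 95-nt exon of MBNL2 had PSI of 71.9, 64.8 and 65.4% in control libraries and 43.1, 68.3 and 100% in SAM68 libraries when measured between the 154-nt exon and the last exon. The SAM68 libraries again spread to both sides of control libraries (∆PSI 3.16 points, interval -22.4 to 28.7, adjusted p = 0.996). Measured behind the 36-nt exon, it was at 100% in 5 libraries and at 89% in 1 SAM68 library (∆PSI -3.65 points, interval -25.2 to 17.9, adjusted p = 0.713). The 36-nt exon of MBNL2 stayed below the minimum. Its row counts reads among the 154-nt exon, the 36-nt exon and the last exon only, so reads that join the 36-nt to the 95-nt exon are not in it, and its skipping junction is also that of the 95-nt exon. It held 15 skipping and no inclusion reads in control libraries and 20 skipping reads and 1 inclusion read in SAM68 libraries.

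MBNL3 (ENSG00000076770.14, chromosome X, - strand) had 3 rows, of a 74-nt, a 165-nt and a 138-nt exon, with 18, 21 and 10 reads in all 6 libraries together. None was tested, and the tables used here held no row of a 54-nt, 36-nt or 95-nt exon of MBNL3. Its row with the most reads had 6, 7 and 3 reads in control libraries and 0, 1 and 4 in SAM68 libraries. A difference was not detectable at this depth.

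CELF1 (ENSG00000149187.18, chromosome 11, - strand) had 18 tested events, the most of the 7 genes. Among these were small shifts of the 3ʹ splice site within the coding sequence. At the tandem acceptor of exon 12, the longer form made up 35.3, 32.2 and 50.4% in control libraries and 42.8, 35.6 and 36% in SAM68 libraries (∆PSI -1.18 points, interval -11.1 to 8.72, adjusted p = 0.996). One control library lay above the other 5. At the 12-nt shift of exon 10, PSI was 79, 83 and 72.1% against 76.1, 75.6 and 82.6% (∆PSI 0.0511 points, interval -8.56 to 8.66, adjusted p = 0.979). The groups overlapped at both sites. The tandem acceptor of exon 7 used the upstream AG in 95.8 to 98.5% of the signal in the 6 libraries.

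Near the end of CELF1, a 105-nt stretch inside the last canonical exon is used as an internal exon, noncoding in the protein-coding transcripts that contain it. PSI was 34, 32.6 and 27.6% in control libraries and 21.7, 31.5 and 24.7% in SAM68 libraries. The ∆PSI was -5.46 points (interval -13.8 to 2.91, adjusted p = 0.699) and the groups overlapped. A row of the same exon with another downstream partner, whose skipping form had at most 8 reads, gave 5.9 points in the other direction.

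The other alternative exons of CELF1 lie at its start, where several first exons can be joined to exon 4. The 152-nt exon (exon 3) was included at 11.7, 8.14 and 6.9% in control libraries and at 9.46, 6.23 and 13.5% in SAM68 libraries when read from an upstream first exon (∆PSI 0.808 points, interval -2.9 to 4.52, adjusted p = 0.84). Read from the 72-nt exon, it was included at 76.6, 74.6 and 68.2% against 82.4, 85 and 79.1%, with no overlap but only 37 to 68 reads per library (∆PSI 9.02 points, interval -8.83 to 26.9, adjusted p = 0.699). The same exon thus differed far more between its 2 upstream partners than between the groups.

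The 72-nt exon (exon 2), which is noncoding in all 7 protein-coding transcripts that hold it, gave the largest ∆PSI of all members. PSI was 69.4, 39.3 and 36.8% in control libraries and 100, 100 and 66.9% in SAM68 libraries, from 8 to 33 reads. The highest control library lay above the lowest SAM68 library. The ∆PSI was 40.5 points (interval 10.8 to 70.2, unadjusted p = 0.04, adjusted p = 0.699). Its other rows against other partners gave -12.4 and 1.11 points, and the sum of all its rows gave 3.86 points. Of the other CELF1 exons, those of 111, 114, 162 and 80 nt were included in nearly all reads, a 113-nt exon was skipped in nearly all reads, and a 40-nt exon gave 0.898 and -11.4 points in rows of at most 213 and 25 reads (adjusted p = 0.699 for each).

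RBFOX2 (ENSG00000100320.22, chromosome 22, - strand) had 8 events. Its 93-nt exon (exon 6 of the canonical 14) was included in all reads of control libraries, 181 to 245 in each, and at 99.4, 94.4 and 100% in SAM68 libraries. Only 2 SAM68 libraries held skipping reads, 1 and 8 of them. The ∆PSI was -2.06 points (interval -4.08 to -0.0463, unadjusted p = 0.0296, adjusted p = 0.699), and the groups overlapped at 100%.

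The 40-nt exon of RBFOX2 (exon 11) belongs to the pair of alternative exons that distinguish the brain and muscle forms of RBFOX proteins. PSI was 97.3, 98.6 and 96.8% in control libraries and 96.4, 94.4 and 88.6% in SAM68 libraries, from 115 to 189 reads. All 3 SAM68 libraries were lower than all 3 control libraries (two-sided exact permutation p = 0.1). The ∆PSI was -4.43 points (interval -9.15 to 0.288, unadjusted p = 0.0491, adjusted p = 0.699), and -2.18 points without the lowest SAM68 library. The tables used here held no row of the 43-nt exon, its muscle counterpart.

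The tandem acceptor of RBFOX2 exon 4 varied among control libraries. PSI was 17.9, 36.2 and 27.6% there and 35.9, 30.4 and 38.8% in SAM68 libraries (∆PSI 7.77 points, interval -2.29 to 17.8, adjusted p = 0.805). The ∆PSI was 3.1 points without control library 1 and 12.3 points without control library 2. The 2 MXE rows of RBFOX2 pair exons 5 and 6, of 54 and 93 nt, and exons 2 and 3, of 51 and 225 nt. Their PSI was 38.6, 55.1 and 64.1% against 44, 49.7 and 41.4% for the first pair, and 62.9, 46.8 and 36.1% against 47.7, 57.5 and 45.1% for the second. The ∆PSI was -7.58 points (interval -17.8 to 2.66, adjusted p = 0.83) and 1.46 points (interval -14.3 to 17.3, adjusted p = 0.975). For the first pair it was -14.6 points without control library 1 and -1.86 points without control library 3. All 4 exons stand in the canonical transcript, so these rows also compare outer junctions. A 120-nt exon found in 1 annotated transcript was used at 7.51, 8.85 and 3.48% in control libraries and at 3.53, 1.12 and 2.27% in SAM68 libraries (∆PSI -4.31 points, interval -9.51 to 0.9, adjusted p = 0.699). As single skipped exons, the 225-nt and the 51-nt exon were included in nearly all reads, with a ∆PSI of -1.57 and -0.191 points.

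TIA1 (ENSG00000116001.15, chromosome 2, - strand) had 15 events, and 8 of them had a rarer form of at least 5%. The 33-nt exon (exon 5 of the canonical 13) separates the main protein isoforms of TIA1, which differ in their splicing activity. PSI was 59.4, 73 and 71.5% in control libraries and 49.7, 65.6 and 56.8% in SAM68 libraries, from 54 to 83 reads. The highest SAM68 library lay above the lowest control library. The ∆PSI was -10.6 points (interval -25.9 to 4.6, adjusted p = 0.699), past the limit of 10 points but not past the test. It ranged from -14.9 to -6.8 points when 1 library was left out. With the rows of this exon summed, the ∆PSI was -12.4 points (unadjusted p = 0.0678, adjusted p = 0.73, quasi-binomial test).

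The 5ʹ splice site of TIA1 exon 2, shown above, gave the smallest p of the gene. The downstream site, which adds 6 nt, was used in 5.32, 7.6 and 7.11% of the signal in control libraries and in 1.63, 4.49 and 0% in SAM68 libraries. The ranges of the groups were apart (two-sided exact permutation p = 0.1). These values rest on 24 reads of the longer form in the control and 6 in SAM68 libraries. The ∆PSI was -4.64 points (interval -9.55 to 0.267, unadjusted p = 0.0596, adjusted p = 0.822). The 103-nt exon that ends at this site was included at 86.8, 98 and 90.1% against 100, 100 and 84.4% (∆PSI 3.16 points, interval -6.27 to 12.6, adjusted p = 0.699).

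A second 5ʹ splice site of TIA1 extends another exon by 133 nt (chr2:70216753-70216885). The extension was kept at 18.5, 14.5 and 17.6% in control libraries and at 12.4, 10 and 12.8% in SAM68 libraries, again without overlap (two-sided exact permutation p = 0.1). The ∆PSI was -5.14 points (interval -13.5 to 3.18, adjusted p = 0.822). Both alternative 5ʹ splice sites of TIA1 thus had lower values in SAM68 libraries, and neither passed the test.

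At the tandem acceptor of TIA1 exon 12, PSI was 93.8, 75.9 and 77.4% in control libraries and 88, 90 and 87.2% in SAM68 libraries (∆PSI 6.04 points, interval -3.39 to 15.5, adjusted p = 0.805). The ∆PSI was 11.8 points without control library 1 and 2.79 points without control library 2. The SAM68 libraries lay between the control values. A 66-nt exon that no protein-coding transcript of the annotation holds was included at 13.7, 5.79 and 9.85% against 17, 9.59 and 9.13% (∆PSI 2.13 points, interval -5.63 to 9.9, adjusted p = 0.757). A 119-nt exon upstream of exon 6, also absent from the protein-coding transcripts, gave -4.62 and -7.4 points in its 2 tested SE rows, and the MXE rows that pair it with the 33-nt exon gave -0.0783 and -4.88 points. The remaining TIA1 events, a 31-nt acceptor shift and exons of 85, 97 and 33 nt against other partners, had differences from -5 to 1.78 points, and the adjusted p of all these events was 0.699 or more.

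TIAL1 (ENSG00000151923.17, chromosome 10, - strand) had 9 events. Its 51-nt alternative part, at the start of exon 3 of the canonical 12, makes the longer TIAL1 protein. PSI was 34.6, 28.4 and 35.7% in control libraries and 43.4, 33 and 40.9% in SAM68 libraries, from 156 to 221 reads. The lowest SAM68 library lay among the control libraries. The ∆PSI was 6.18 points (interval -2.33 to 14.7, adjusted p = 0.805).

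Skipping of the whole exon was rare. With the longer start (150 nt), inclusion was 100, 98.2 and 95.3% in control libraries and 100% in all SAM68 libraries (∆PSI 2.17 points, interval -0.39 to 4.73, unadjusted p = 0.0275, adjusted p = 0.699). With the shorter start (99 nt), it was 100, 98.7 and 96.3% against 100% (∆PSI 1.66 points, unadjusted p = 0.0342, adjusted p = 0.699). Both rows rest on the same skipping junction, with 2 and 6 reads in 2 control libraries and none in SAM68 libraries.

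A 376-nt exon and a retained intron of TIAL1 are held by no protein-coding transcript of the annotation. The exon was included at 5.42, 7.56 and 4.37% in control libraries and at 5.51, 5 and 7.46% in SAM68 libraries (∆PSI 0.206 points, interval -2.59 to 3, adjusted p = 0.976). The intron, of 329 nt, was retained at 0.431, 0.372 and 0.448% against 1.29, 1.2 and 0.952%, with every SAM68 library above every control library (two-sided exact permutation p = 0.1). The counts of retention were 2 reads in each control library and 8, 6 and 5 in SAM68 libraries (∆PSI 0.73 points, interval -0.165 to 1.63, adjusted p = 0.806). An acceptor shift of 308 nt gave 9.82 points from only 20 to 34 reads per library (interval -16.8 to 36.5, adjusted p = 0.857). Exons of 59, 68 and 97 nt differed by 0.324, 0.0314 and -1.72 points.

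**Figure D2:**
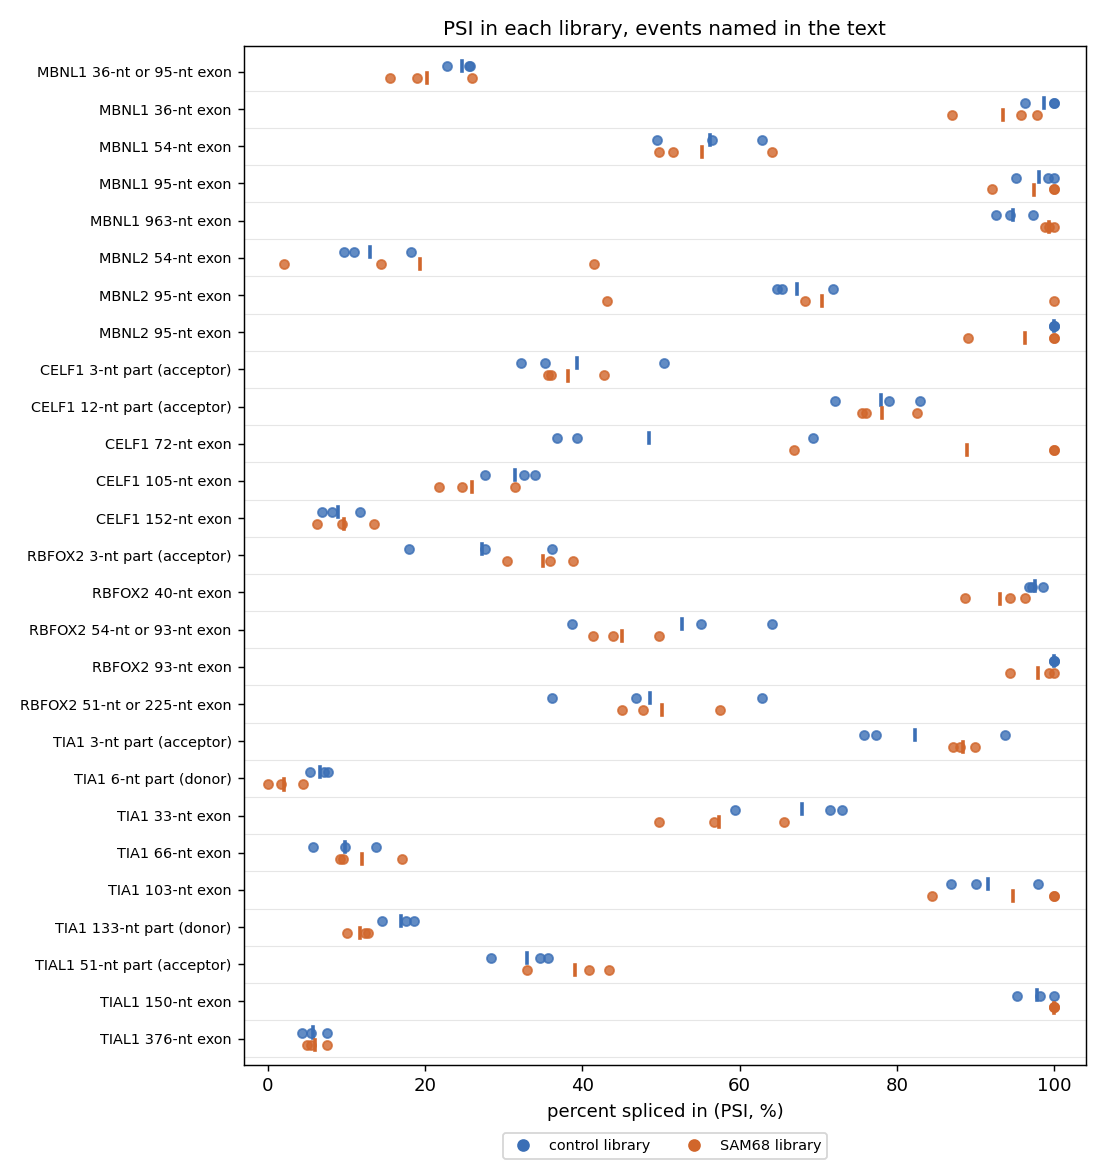
PSI in % (x axis) of the 27 events chosen by rule (rows, by gene), with 1 point per library and vertical bars at the group means. The control and SAM68 points overlap in most rows, and the widest spreads within a group are those of the MBNL2 54-nt exon, the MBNL2 95-nt exon and the CELF1 72-nt exon.

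The tandem acceptors shared their letters but not their use. The upstream AG gave 39.3% ± 9.75 (SD, n = 3) at CELF1 exon 12, 27.2% ± 9.16 (SD, n = 3) at RBFOX2 exon 4 and 82.4% ± 9.95 (SD, n = 3) at TIA1 exon 12 in control libraries. In the SAM68 libraries these levels were 38.1% ± 4.04, 35% ± 4.27 and 88.4% ± 1.44 (SD, n = 3 each). Of the 4 sites, 2 had a higher and 2 a lower mean in SAM68 libraries, and none passed the test.

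The introns beside the members' exons were searched for the motifs that these proteins and SAM68 bind, in the 250 nt before and after each of 34 distinct exons, on the strand of the gene only. TGCATG was found beside 19 of the 34 exons (55.9%), against 13.8% of 38685 cassette exons tested. It was present beside all 6 exons of MBNL1, both exons of MBNL2, 3 of 5 of RBFOX2, 4 of 6 of TIAL1, 3 of 9 of CELF1 and 1 of 6 of TIA1. Neighbouring and overlapping exons of 1 gene share part of these introns, so the 34 exons are not independent, and the members' introns also held more of the other motifs. TTTAAA was found beside 18 exons (52.9%, against 40.7%), TTTTT beside 33 (97.1%, against 72.3%) and TGTGT beside 26 (76.5%, against 57.6%). The MBNL motif, TGCT with C also allowed as its first or last letter, was found beside all 34 exons, as beside 99.1% of all exons. A run of T before AAA can count for both TTTTT and TTTAAA. These matches describe the sequence, and no binding was measured.

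Counts per gene were not part of the tables, and each gene was represented by its event with the most reads, in rpm of the sum of such reads. These levels depend on the event and were compared between groups only. They do not tell more RNA per cell from more cells with the RNA. RBFOX2 had 42.2, 35.8 and 30.3 rpm in control libraries and 46.1, 43.7 and 47.7 in SAM68 libraries. Its groups did not overlap, but the log2 fold change of 0.35 (standard error 0.13) did not pass the test (unadjusted p = 0.0104, adjusted p = 0.234, limma on log2(rpm + 0.5)), and it was 0.11 when all skipped exon rows of the gene were summed. It was 0.23 without control library 3 and 0.47 without control library 1.

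TIAL1 was close to RBFOX2 in its pattern, with 40.2, 43 and 37.5 rpm in control libraries and 49.5, 46.4 and 48.6 in SAM68 libraries. Its difference on the log2 scale was 0.26 with a standard error of 0.11 (adjusted p = 0.348, limma), and 0.13 with the summed rows. MBNL2 had 4.65, 3.98 and 2.84 rpm against 4.73, 6.06 and 5.14, also without overlap, from 17 to 33 reads per library (log2 fold change 0.44, standard error 0.33, adjusted p = 0.623, limma), and its log2 fold change was 0.21 with the summed rows and 0.27 without control library 3. The unadjusted p was under 0.05 in 2 of the 6 genes tested, against 12.1% of 10147 genes. The share of all genes whose groups did not overlap was not counted, so the lack of overlap cannot be set against a background.

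The remaining members showed smaller changes. MBNL1 had 65.2, 59.99 and 47.8 rpm in control libraries and 49.7, 48.1 and 64 in SAM68 libraries (log2 fold change -0.10, from -0.22 to -0.0024 with 1 library left out). CELF1 had 52.9, 51.2 and 50.35 rpm against 52.2, 48.3 and 58.3 (log2 fold change 0.04, and below 0 with summed rows), and TIA1 had 39.3, 31 and 25.1 against 27.1, 27.3 and 27.5 (log2 fold change -0.19, and -0.029 without control library 1 or -0.35 without control library 3). Their groups overlapped. No member passed an adjusted p of 0.05 in limma, against 0.414% of all genes, and 0.0493% of all genes were called with a log2 fold change of at least 1 besides.

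**Figure D3:**
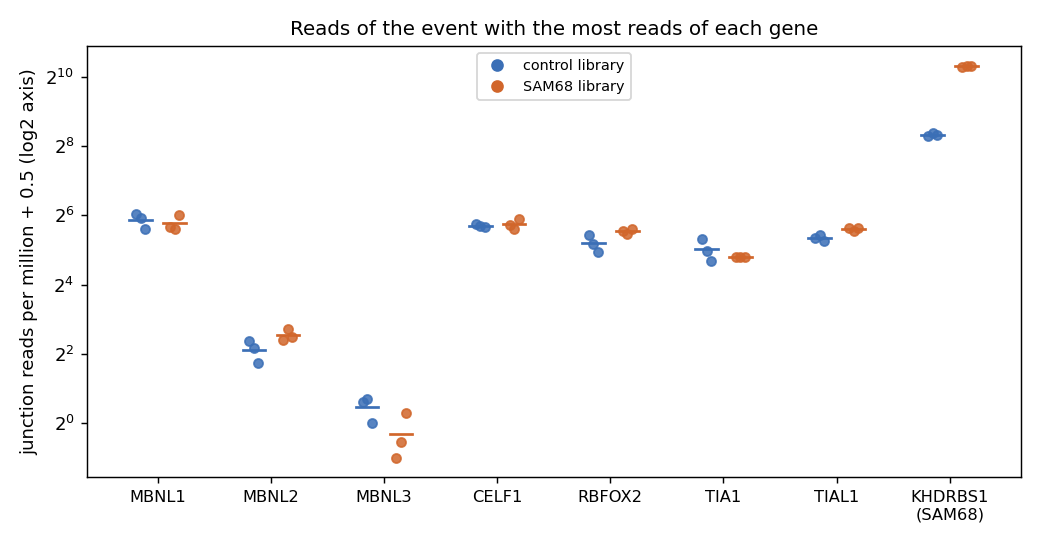
Rpm + 0.5 on a log2 axis (y axis) for the event with the most reads of each gene, with 1 point per library and bars at the group means. KHDRBS1 rises from 318.5 to 1255 rpm, and the groups of RBFOX2, TIAL1 and MBNL2 do not overlap, with smaller differences that did not pass the test. The share of all genes without overlap was not counted.

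Wider lists were read with the same fit. Of 58 other splicing regulators, 45 had events, 448 in all, and 5 of these were called, 1 with higher and 4 with lower PSI, against 0.0934% of all events. With each event's own spread, or by limma after a logit of PSI, none of them was called. The called events were in U2AF1 (3 rows), HNRNPM and KHDRBS1, and U2AF1 and HNRNPM are named only because their values were seen. The U2AF1 rows ran between nearly 0 and 100% within a group, and this gene has a near-identical copy on its chromosome that can share its reads. In 1 U2AF1 row, 2 SAM68 libraries had no reads, so that its SAM68 group was 1 library, and without this row 4 events were called, 1 with higher and 3 with lower PSI. The KHDRBS1 row includes the plasmid's reads. At an unadjusted p under 0.05 were 45 of the 448 events (10%, against 5.95% of all events), and the median absolute ∆PSI over the 401 with at least 50 reads was 0.35 points. The median of mean reads was 483 for the regulators' events and 131 for the members', and the share with a rarer form of at least 5% was 33.9% and 42.4%, so the 1.34 points of the members are not directly comparable with it.

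The second list held 30 genes with exons known as targets of the members, such as INSR, BIN1 and NUMA1 for MBNL1 and FAS for TIA1. Of these, 19 had events, 242 in all, and none was called in the quasi-binomial test with the shared spread. These are all tested events of the 19 genes, taken by gene symbol, and the known target exons were not singled out among them. Of the 242 events, 9 had an unadjusted p under 0.05 (3.72%), 2 with higher and 7 with lower PSI, below the 5.95% of all events. Their median absolute ∆PSI was 0.765 points in events with at least 50 reads, next to 0.762 points over all events. No call was made in this list with each event's own spread or by limma after a logit of PSI, whereas 5 were made by the likelihood ratio test that ignores the spread.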

How the data were processed

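RNA of 3 control and 3 SAM68 libraries was sequenced as pairs on a NovaSeq. Per the labels and methods, the authors used CASAVA 1.4, trimmed with fastp 0.20.0, aligned to GRCh38 with HISAT2 2.1.0 and listed AS events with rMATS, whose version is not given in the sources used here. The deposited values were junction read counts, held as lists of 3 libraries in 1 cell, with other columns of effective lengths; the authors' own columns of p-values, FDR and inclusion difference were not used.

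Each list was split into counts per library. In the A3SS table, 275 lists had lost their separators and 145 were recovered from the inclusion level, 130 were left out and 19 were blank, none of them of a member. The lists carry no replicate numbers, and which list is the control group was read from a plot of the study, with KHDRBS1 reads as the check. Libraries of 1 group differed beyond sampling noise (chi-square per degree of freedom 3.14 to 4.54), so none was a copy of another.

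The quasi-binomial fit covered the 66378 events that averaged 10 reads or more, in R 4.3.3, its spread moderated within event type with limma 3.58.1. This moderation gave every event the shared spread of its type. Junction reads per gene were tested with limma on log2(rpm + 0.5). A negative binomial count test had been planned for these and was not run. The reads split from the lists are whole counts, but the deposited columns hold lists and were not treated as count columns. The skipped exon table held 16951876 to 19737729 junction reads per library. Intervals cover the shared spread between libraries. The fits were tested on simulated data.

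Members and gene lists were chosen with earlier results of these data known. Events given in full were called events, the smallest p of each member, events with a rarer form of at least 5% and a mean of at least 50 reads (at most 4 per member), and exons of known role by length. Other member events, such as the TIAL1 intron, were added after their values were seen. Exon annotation came from GENCODE 44 and sequences from hg38. Alternatives covered the spread, test, minimum, adjustment, length scaling, threshold, summed rows and each library left out.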

Additional observations from a re-analysis of the deposited data

How the results depend on the processing

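No paired analysis was possible because the lists of counts carry no replicate numbers. Calls among the member events stayed at 0 under all alternatives but 1: the likelihood ratio test that ignores the spread called 1, the CELF1 72-nt exon, and it called 9 events of the other splicing regulators and 5 of the target genes. Calls among the other splicing regulators, 5 in the main fit, were 0 with each event's own spread, 0 by limma after a logit of PSI and 8 without any limit on ∆PSI, and 3 to 5 when 1 library was left out. Over all 66378 events, 62 were called, and 2, 3, 1354, 172 and 106 were called with the own spread, limma on the logit, the likelihood ratio test, no limit and a limit of 5 points.

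Of 445 values of the named events under alternatives, 425 kept their direction and their side of the call (adjusted p under 0.05 and 10 points together), 19 changed direction and 1 became a call. By adjusted p alone, the likelihood ratio test put 6 named events under 0.05: the MBNL1 963-nt and 36-nt exons, the CELF1 72-nt exon, the RBFOX2 93-nt exon, the TIA1 6-nt donor and the TIAL1 150-nt exon. With rows of an exon summed, the MBNL2 95-nt exon behind the 36-nt exon turned to 0.127 points. The other reversals came from leaving out 1 library, and the ∆PSI then ranged from -5.57 to 2.21 points for the MBNL1 54-nt exon, -2.26 to 1.87 for the MBNL1 95-nt exon, -4.78 to 14.97 for the MBNL2 54-nt exon and -11.6 to 16.8 for the MBNL2 95-nt exon. In CELF1 it ranged from -4.72 to 4.38 points for the 3-nt acceptor, -2.91 to 2.52 for the 12-nt acceptor and -1.08 to 2.56 for the 152-nt exon. It ranged from -4.80 to 8.60 points for the RBFOX2 51 or 225-nt pair, -0.420 to 4.09 for the TIA1 66-nt exon and -0.530 to 1.10 for the TIAL1 376-nt exon. Without a change of direction, it ranged from -8.22 to -3.34 points for the CELF1 105-nt exon, -7.39 to -2.20 for the MBNL1 36 or 95-nt pair, -3.10 to -0.292 for the RBFOX2 93-nt exon, 0.562 to 8.35 for the TIA1 103-nt exon, 3.93 to 9.23 for the TIAL1 51-nt part and 0.917 to 3.25 for the TIAL1 150-nt exon. The log2 fold change of CELF1 reads was -0.047 with summed rows and -0.036 to 0.099 when 1 library was left out. The cause of these reversals was not tested.

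The planned count tests and their normalization were not run on the split reads, and a median-of-ratios scaling was used as the alternative. A pseudocount of 2 was added after seeing the data. With 3 libraries per group and 10.3 to 327.8 mean reads, 29 of the 66 intervals reached beyond 10 points.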
